A study of Mus musculus with 12 samples.

Results

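Desmosomes, adherens junctions and gap junctions join heart muscle cells end to end at the intercalated disc. The 9 genes described here encode proteins of that structure, namely the desmosomal genes Dsp, Pkp2, Dsg2, Dsc2 and Jup and the intercalated disc genes Cdh2, Gja1, Ctnna3 and Tjp1. They were taken by symbol from the 33641 genes listed for each sample. RNA from the left ventricle (LV) and right ventricle (RV) was sequenced in mice of strain C57BL/6J (a hybrid line by the methods of the study) aged 12 to 14 weeks. All mice carry the human coding sequence of phospholamban (PLN), the inhibitor of the sarcoplasmic reticulum calcium pump, at the mouse Pln gene. WT-PLN mice carry the normal human sequence, and R14del-PLN mice carry a human sequence with the R14del deletion of an arginine codon, as heterozygotes with the normal human sequence by the methods of the study. There were 3 samples in each of the 4 groups of ventricle and genotype, 12 in all. The labels do not state whether LV and RV samples of the same number came from the same heart, so p-values measure the spread between these samples.

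Desmosomes anchor intermediate filaments to the cell membrane. Their cadherins desmoglein and desmocollin bind neighbouring cells, plakoglobin and plakophilin bind the cadherin tails, and desmoplakin links this plaque to the desmin filaments. In the heart, desmosomes merge with adherens junctions into a mixed structure called the area composita, and connexin channels next to it pass the electrical impulse between cells. Variants in the human desmosomal genes cause arrhythmogenic cardiomyopathy, and the R14del variant of PLN is also found in patients with that diagnosis.

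The values are given as TPM, a share of all transcripts of a sample after correction for transcript length, so levels of different genes can be set side by side within a sample. Mitochondrially encoded genes took from 37.3% to 54.5% of the TPM of a sample. Both WT-PLN samples numbered 1 had 4 Y-linked genes at 0.0159 to 0.191 TPM and the other 10 samples had 3.03 to 30.6 TPM, although the study describes male mice. The RV R14del-PLN sample numbered 3 carries another sequencing run number than the other 11. Pln itself was between 1559 and 1963 TPM in all samples, and this value does not tell the genotypes apart. All 8 cardiomyocyte marker genes passed the filter, and their summed level was 29176 to 44468 TPM, against 79.1 to 142 TPM for 6 endothelial and 229 to 496 TPM for 6 fibroblast markers. In such tissue, fewer cells of a type and less RNA per cell cannot be told apart.

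All 9 genes were detected in every sample and passed the filter of a mean of 0.5 TPM, and together they held 396 to 631 TPM. Their sum was 475 TPM in the LV and 500 TPM in the RV of WT-PLN mice, and 477 TPM in the LV and 493 TPM in the RV of R14del-PLN mice. Over the 12 samples, Dsp had the highest mean level at 144 TPM, followed by Gja1 at 101 TPM, Cdh2 at 79.8 TPM, Jup at 59.3 TPM and Pkp2 at 47.8 TPM. Lower levels were found for Dsg2 at 19.4 TPM, Tjp1 at 14.1 TPM, Ctnna3 at 10.7 TPM and Dsc2 at 10.3 TPM. This order was kept in 12 of 12 samples for the neighbours Cdh2 and Jup, Jup and Pkp2, Pkp2 and Dsg2, and Tjp1 and Ctnna3. Dsp was above Gja1 in 11 samples and Dsg2 above Tjp1 in 11, while Gja1 was above Cdh2 in 9 and Ctnna3 above Dsc2 in 8. The order of the last pair and that of Gja1 and Cdh2 were therefore the least steady between samples. In the LV of WT-PLN mice, Cdh2 was above Gja1 in 2 of 3 samples, and in R14del-PLN mice Gja1 was above Cdh2 in all 6.

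**Figure D1:**
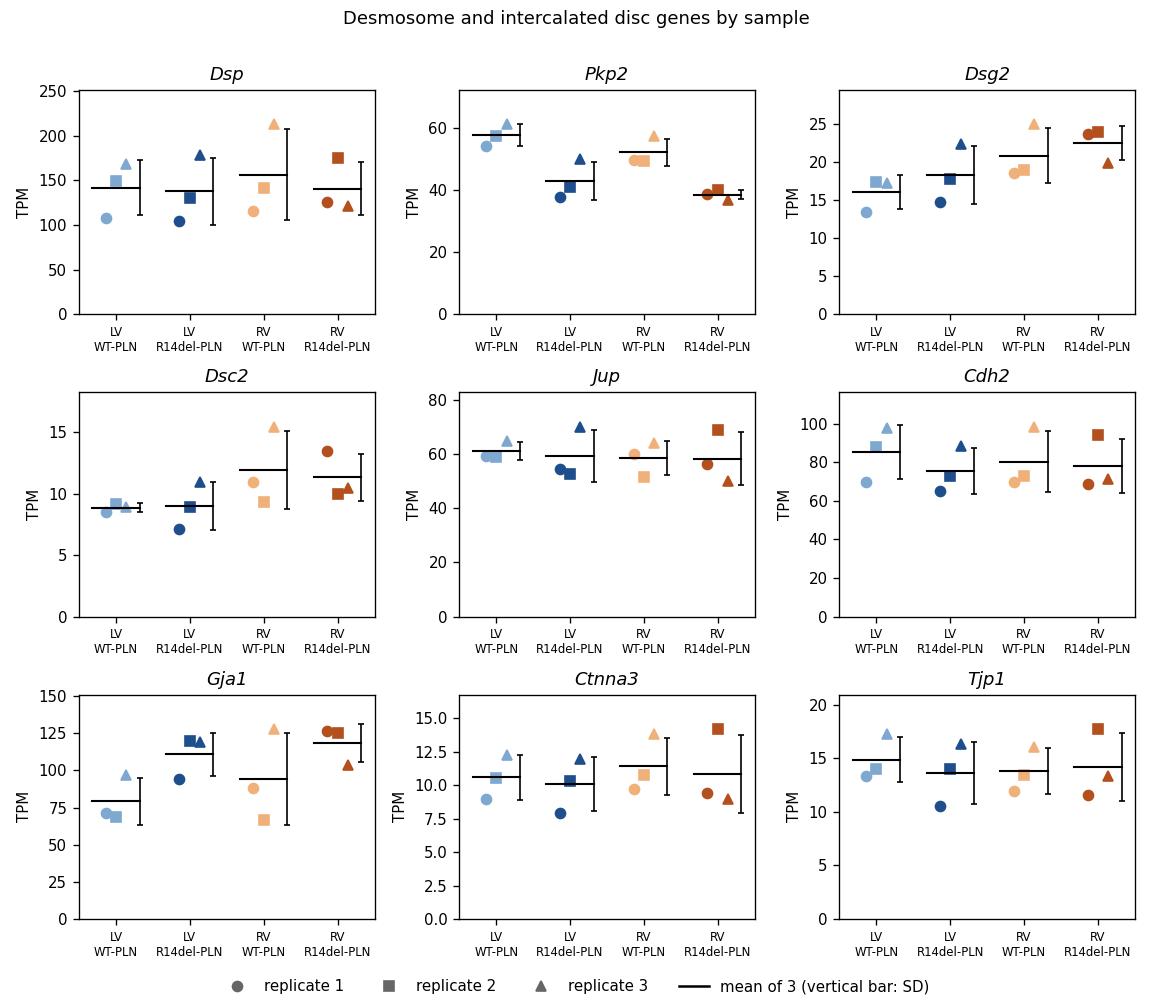
Level of each of the 9 genes in TPM (vertical axes from 0) in the 3 samples of each group, with the replicate number given by the marker, the mean by a horizontal line and the SD by a vertical bar. Pkp2 lies lower in R14del-PLN than in WT-PLN samples of both ventricles without overlap, and Gja1 has higher means in R14del-PLN samples with overlapping values.

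Among the genes of the desmosomal plaque, Dsp and Jup overlapped between groups in all 4 comparisons. Dsp, which encodes desmoplakin, was at 108, 150 and 168 TPM in WT-PLN and at 104, 130 and 178 TPM in R14del-PLN samples of the LV. In the RV it was at 115, 141 and 213 TPM in WT-PLN and at 126, 175 and 121 TPM in R14del-PLN mice. Values within a group spread by more than the group means differed. The difference between R14del-PLN and WT-PLN was -0.06 ± 0.25 (SE) in the LV and -0.12 ± 0.25 (SE) in the RV on the scale of log2(TPM + 1), on which all differences below are given. The 95% interval in the LV reached from -0.60 to 0.49, so differences within these bounds are not excluded.

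Jup encodes plakoglobin, which sits in desmosomes and adherens junctions alike. It was at 59.4, 59.0 and 64.8 TPM in the LV and at 59.9, 51.5 and 64.1 TPM in the RV of WT-PLN mice. In R14del-PLN mice it was at 54.6, 52.7 and 70.2 TPM in the LV and at 56.2, 69.0 and 49.9 TPM in the RV. The groups overlapped in every comparison, and the 4 differences lay between -0.07 and -0.01 with standard errors of 0.15.

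Pkp2, which encodes plakophilin 2, the plakophilin of heart muscle and the desmosomal gene most often altered in arrhythmogenic cardiomyopathy, was lower in R14del-PLN samples of both ventricles. In the LV it was at 54.2, 57.4 and 61.2 TPM in WT-PLN and at 37.9, 41.0 and 49.9 TPM in R14del-PLN mice. In the RV it was at 49.7, 49.5 and 57.3 TPM in WT-PLN and at 38.7, 39.9 and 36.9 TPM in R14del-PLN mice. Every R14del-PLN sample was thus below every WT-PLN sample of the same ventricle, and the lowest WT-PLN value in the RV was below the highest R14del-PLN value in the LV. The group means were 57.6 ± 3.52 and 42.9 ± 6.25 TPM (SD, n = 3 each) in the LV and 52.2 ± 4.44 and 38.5 ± 1.48 TPM in the RV.

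The difference in Pkp2 was -0.42 ± 0.12 (SE) in the LV, or 0.746 of the WT-PLN level with a 95% interval from 0.621 to 0.896. In the RV it was -0.43 ± 0.12 (SE), or 0.745 of the WT-PLN level with an interval from 0.620 to 0.895. Fitted with limma over all 12526 tested genes, the unadjusted p was 0.00423 in the LV and 0.00411 in the RV, where Pkp2 ranked 238 and 174 among all genes. After Benjamini-Hochberg adjustment, p was 0.222 in the LV and 0.294 in the RV, so Pkp2 did not pass the threshold of 0.05. When LV and RV of the same number were averaged, which leaves 3 values per genotype, the difference was -0.42 with a 95% interval from -0.63 to -0.22 and an adjusted limma p of 0.0952. Without both WT-PLN samples numbered 1, it was -0.47 in the LV and -0.46 in the RV. Without the RV sample of the other sequencing run it was -0.40 in the RV.

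The adjusted p of Pkp2 depended on how samples were scaled. The share of mitochondrially encoded transcripts was lowest, at 37.3%, in the LV R14del-PLN sample with the highest Pkp2 of its group. With mitochondrially encoded genes removed and the rest rescaled, the limma difference was -0.41 in the LV and -0.39 in the RV, with adjusted p of 0.0149 and 0.0247. After quantile normalization it was -0.32 and -0.40, with adjusted p of 0.0157 and 0.00445. After upper quartile scaling it was -0.30 and -0.40, with adjusted p of 0.0368 and 0.0108. In these 3 cases the adjusted p was under 0.05 in both ventricles, but the fold stayed under 1.5 and Pkp2 was not called. The spread of Pkp2 within groups was 0.127 (SD of log2 values) as deposited, 0.0514 without mitochondrially encoded genes and 0.0312 after quantile normalization, against 0.188, 0.168 and 0.135 for the median tested gene.

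The summed level of 5 erythroid markers was 2087 to 2316 TPM in LV samples of WT-PLN and 1093 to 2142 TPM in LV samples of R14del-PLN mice, and it was 1461 to 1736 TPM and 956 to 1368 TPM in the RV. The groups overlapped in the LV and did not in the RV. Of the 5 genes, 4 in the LV and 3 in the RV had an unadjusted limma p under 0.05, beside 7.85% and 3.40% of all genes that were lower at this p, none was called, and none was at 0 in all samples. The 8 cardiomyocyte markers had a median difference of -0.01 in the LV and 0.02 in the RV, with 0 of 8 at an unadjusted p under 0.05 in either. Of 5 tested atrial cardiomyocyte markers, 5 had lower values in the LV, 2 of them at an unadjusted limma p under 0.05 (0 after quantile normalization), with a median of -2.30 in the LV and 0.03 in the RV. Their list summed to 211 to 1319 TPM in WT-PLN and 146 to 319 TPM in R14del-PLN samples of the LV. Of 3 tested mesothelial markers, all at low levels, 1 in the LV and 3 in the RV had an unadjusted limma p under 0.05, with medians of -0.30 and -0.90. All 6 fibroblast markers had lower values in both ventricles, beside 71.7% of all tested genes in the LV and 50.9% in the RV. Their medians were -0.35 and -0.15, or -0.24 and -0.10 after quantile normalization. Of 6 macrophage markers, 5 were lower in each ventricle, with medians of -0.15 and -0.03. Of 6 endothelial markers, 4 in the LV and 5 in the RV were higher, with medians of 0.07 and 0.19. Of 6 mural markers, 3 and 5 were higher, with medians of -0.02 and 0.16. The part of these cell types in the values of Pkp2 was not tested.

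The desmosomal cadherins had higher means in the RV than in the LV. Dsg2 encodes desmoglein 2, the main desmoglein of heart muscle. It was at 13.4, 17.4 and 17.3 TPM in the LV and at 18.6, 18.9 and 25.0 TPM in the RV of WT-PLN mice. The R14del-PLN samples were at 14.7, 17.8 and 22.3 TPM in the LV and at 23.7, 24.0 and 19.9 TPM in the RV. All 3 RV samples were above all 3 LV samples in WT-PLN mice, and the ventricles overlapped in R14del-PLN mice. Between genotypes the difference in Dsg2 was 0.17 ± 0.17 (SE) in the LV and 0.12 ± 0.17 (SE) in the RV, with overlap in both. After quantile normalization it was 0.27 in the LV, with an unadjusted limma p of 0.0119 and an adjusted p of 0.195, and 0.14 in the RV.

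Dsc2, which encodes desmocollin 2, the partner cadherin, was at 8.50, 9.19 and 8.90 TPM in the LV and at 10.9, 9.35 and 15.5 TPM in the RV of WT-PLN mice. The R14del-PLN samples were at 7.10, 8.88 and 10.98 TPM in the LV and at 13.5, 9.98 and 10.5 TPM in the RV. It showed the same arrangement as Dsg2, with no overlap of ventricles in WT-PLN and overlap in R14del-PLN mice.

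The difference between RV and LV was 0.35 ± 0.17 (SE) for Dsg2 and 0.36 ± 0.19 (SE) for Dsc2 in WT-PLN mice, with unadjusted limma p of 0.0563 and 0.0728 and adjusted p of 0.350 and 0.371. In R14del-PLN mice it was 0.30 ± 0.17 and 0.31 ± 0.19 (SE), with adjusted limma p of 0.836 and 0.842. Neither gene was called. The median over all tested genes was -0.17 in the same comparison of WT-PLN mice and -0.08 in R14del-PLN mice, so relative to it the values were 0.52 and 0.53 in WT-PLN and 0.38 and 0.39 in R14del-PLN mice. After quantile normalization, which brings that median to 0.005 in WT-PLN mice, the differences were 0.54 for Dsg2 and 0.54 for Dsc2 in WT-PLN mice, with unadjusted limma p of 8.8e-05 and 0.00376 and adjusted p of 0.145 and 0.241. The value of Dsc2 in WT-PLN mice rested in part on the RV sample numbered 3, without which it was 0.17, and that of Dsg2 was then 0.22. All 6 endothelial markers had lower values in the RV of WT-PLN mice, as had 85.9% of all tested genes. Of the 6, 4 had an unadjusted limma p under 0.05, beside 14.5% of all genes. Their median was -0.43, or -0.24 after quantile normalization, where 6 of 6 were again lower. Mesothelial markers summed to 1.88 to 4.70 TPM in the LV and 4.32 to 9.77 TPM in the RV of WT-PLN mice, with 2 of 3 tested genes at an unadjusted limma p under 0.05 and a median of 0.81, or 0.93 after quantile normalization, and the part of cell composition in these differences was not tested.

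The genes of the area composita and its scaffold overlapped between groups in all 4 comparisons. Cdh2, which encodes N-cadherin, the cadherin of the adherens junction, was at 70.0, 88.1 and 97.9 TPM in the LV and at 70.0, 72.6 and 98.5 TPM in the RV of WT-PLN mice. In R14del-PLN mice it was at 65.3, 72.8 and 88.6 TPM in the LV and at 68.5, 94.2 and 71.3 TPM in the RV. The samples of all 4 groups covered nearly the same range. Ctnna3 encodes alphaT-catenin, which ties cadherins to actin and binds plakophilin 2, and its group means were 10.6 TPM (LV) and 11.4 TPM (RV) in WT-PLN mice and 10.1 and 10.9 TPM in R14del-PLN mice, within a range of 7.93 to 14.2 TPM. Tjp1 encodes ZO-1, the scaffold that binds the tail of connexin 43 at the rim of gap junctions, and its group means were 14.9 and 13.8 TPM in WT-PLN and 13.6 and 14.2 TPM in R14del-PLN mice, within 10.6 to 17.7 TPM. The 12 differences of these 3 genes in the 4 comparisons lay between -0.17 and 0.10, with standard errors of 0.18 to 0.20. After quantile normalization, Ctnna3 was at 0.27 between RV and LV of WT-PLN mice, with an unadjusted limma p of 0.0400 and an adjusted p of 0.425.

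Gja1, which encodes connexin 43, the main gap junction channel of ventricular muscle, had higher means in R14del-PLN samples. In the LV it was at 71.3, 68.9 and 97.3 TPM in WT-PLN and at 94.2, 120 and 119 TPM in R14del-PLN mice. In the RV it was at 88.0, 66.7 and 128 TPM in WT-PLN and at 127, 126 and 104 TPM in R14del-PLN mice. The LV groups overlapped by a single pair of samples, with the highest WT-PLN sample just above the lowest R14del-PLN sample. In the RV, the WT-PLN sample numbered 3 was the highest of all 6, and the other 2 were below all R14del-PLN samples.

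The difference in Gja1 was 0.49 ± 0.21 (SE) in the LV, or 1.40 times the WT-PLN level with a 95% interval from 1.03 to 1.92, at an unadjusted limma p of 0.0362 and an adjusted p of 0.468. In the RV it was 0.38 ± 0.21 (SE), or 1.30 times with an interval from 0.947 to 1.78, at an unadjusted limma p of 0.0976 and an adjusted p of 0.928. Averaged over LV and RV of the same number, it was 0.43 with an interval from 0.07 to 0.80 and an adjusted limma p of 0.337. After quantile normalization it was 0.58 in the LV and 0.43 in the RV, with adjusted limma p of 0.168 and 0.342. Gja1 was not called in any of these. The RV value ranged from 0.15 without the WT-PLN sample numbered 2 to 0.62 without the WT-PLN sample numbered 3.

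Gja1 lies 3.03 Mb from Pln, the targeted gene, on the same chromosome. Of the 19 tested genes within 5 Mb of Pln, Gja1 had the highest difference between R14del-PLN and WT-PLN in both ventricles. The median of the 19 was -0.08 in the LV and -0.03 in the RV, 0 were called, and at an unadjusted p under 0.05 there were 1 higher and 1 lower in the LV and 0 in the RV. The effect of sequence near the targeted gene was not tested.

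The bases before the start site of Gja1 are shown because this gene had the highest difference of the 9 between genotypes, and those of Dsp, Ctnna3 and Tjp1 because these genes deviated together within groups, as described below. Windows were kept for 5 of the 9 genes, which does not show that the others lack a listed start site. The gene closest to Dsp in these deviations is among those without a window. The windows shown are 250 bases on the coding strand that end just before the start site, from RefSeq on GRCm38.p6. They lie at chr10:56377050-56377299 (plus strand) for Gja1, chr13:38151044-38151293 (plus strand) for Dsp, chr10:63429848-63430097 (plus strand) for Ctnna3, the first of its 3 listed start sites, and chr7:65371245-65371494 (minus strand) for Tjp1. The annotated Tjp1 gene begins at 65527781 on the minus strand. Its window therefore lies within the gene, before an internal start site, and does not show the bases before the first one. Capitals mark matches, on either strand, to 5 motifs searched, namely GGGCGG of the GC box, TATAAA of the TATA box, TGANTCA bound by AP-1, CATTCCA bound by TEAD factors and AGATAA bound by GATA factors.
Gja1: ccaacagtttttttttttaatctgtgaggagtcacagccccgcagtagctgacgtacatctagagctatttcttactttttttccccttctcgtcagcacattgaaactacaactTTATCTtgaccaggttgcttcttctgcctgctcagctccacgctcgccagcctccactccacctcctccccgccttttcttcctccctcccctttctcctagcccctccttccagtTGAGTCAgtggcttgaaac
Dsp: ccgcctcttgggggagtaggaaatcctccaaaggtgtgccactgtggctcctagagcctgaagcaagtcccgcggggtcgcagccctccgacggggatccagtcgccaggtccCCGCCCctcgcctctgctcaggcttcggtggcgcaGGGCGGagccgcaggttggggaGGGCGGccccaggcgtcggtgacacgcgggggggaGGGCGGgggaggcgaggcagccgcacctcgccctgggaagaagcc
Ctnna3: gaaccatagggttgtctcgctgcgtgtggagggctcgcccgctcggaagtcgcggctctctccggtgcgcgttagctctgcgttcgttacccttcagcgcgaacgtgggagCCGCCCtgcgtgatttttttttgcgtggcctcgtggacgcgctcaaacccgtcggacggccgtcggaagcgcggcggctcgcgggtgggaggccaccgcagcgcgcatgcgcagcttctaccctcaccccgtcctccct
Tjp1: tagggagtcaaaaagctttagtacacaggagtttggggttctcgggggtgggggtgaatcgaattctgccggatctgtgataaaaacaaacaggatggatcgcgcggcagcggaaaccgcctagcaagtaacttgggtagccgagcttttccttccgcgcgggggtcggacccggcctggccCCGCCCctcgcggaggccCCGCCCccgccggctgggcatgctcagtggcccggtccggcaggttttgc

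In Gja1 the window held an AP-1 match from -19 to -13 and a GATA match from -135 to -130, counted from the start site, and no GC box. Of 32851 mouse windows of this length, 6.75% held an AP-1 and 9.99% a GATA match. The window of Dsp held 4 GC boxes, that of Tjp1 held 2, and that of Ctnna3 held 1, a motif found in 32.7% of all windows. GC content was 50.0% in Gja1, 72.4% in Dsp, 67.6% in Ctnna3 and 63.2% in Tjp1. A TATA box is found in 12.4% and the TEAD motif in 3.69% of all windows, and neither has these letters in the 4 windows shown.

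Counted over the 9 genes, 0 were called between R14del-PLN and WT-PLN in the LV, where 0.519% of all 12526 tested genes were called, and 0 in the RV, where 0.271% were called. A gene was called where its adjusted p was 0.05 or less and its fold 1.5 or more. At an unadjusted p under 0.05, 1 gene of the 9 was lower (Pkp2) and 1 higher (Gja1) in the LV, beside 7.85% lower and 1.76% higher of all genes. In the RV 1 was lower (Pkp2) and 0 were higher, beside 3.40% and 2.82%. After quantile normalization and after upper quartile scaling there were 3 of 9 in the LV (Pkp2, Gja1 and Dsg2) and 2 of 9 in the RV (Pkp2 and Gja1), with 0 called. Of all 12526 genes, 104 in the LV and 85 in the RV were called after quantile normalization, and 99 and 88 after upper quartile scaling. The share of all genes at an unadjusted p under 0.05 was not counted under other scalings, here or for the lists below. All R14del-PLN samples lay below all WT-PLN samples for 1 of the 9 in the LV and 1 in the RV, Pkp2 in each case, beside 8.47% and 5.79% of all genes, and above them for 0 of the 9, beside 2.48% and 5.19%. The median difference of the 9 was -0.06 in the LV and -0.04 in the RV, against -0.09 and -0.003 over all tested genes. With 9 genes, a count of 1 is the smallest above 0, and it cannot be told apart from these shares.

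Between RV and LV, 0 of the 9 were called in WT-PLN mice (0% of all genes) and 0 in R14del-PLN mice (0% of all genes). At an unadjusted p under 0.05 there were 0 of 9 in WT-PLN mice, against 14.5% of all genes, and 0 of 9 in R14del-PLN mice, against 6.57%. Groups did not overlap for 2 of 9 in WT-PLN mice, Dsg2 and Dsc2, against 26.1% of all genes, and for 0 of 9 in R14del-PLN mice, against 9.98%. Of all tested genes in WT-PLN mice, 85.9% had a lower value in the RV, while of the 9 there were 5 higher and 4 lower. With LV and RV of WT-PLN mice paired by number, 12 of 12526 genes were called with limma and 0 of the 9. After quantile normalization, 4 of 9 in WT-PLN mice and 2 of 9 in R14del-PLN mice had an unadjusted limma p under 0.05, again with 0 called. The share of all genes at this p was not counted after quantile normalization, and 14.5% and 6.57% belong to the deposited scaling. These counts therefore have no share to be set against.

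**Figure D2:**
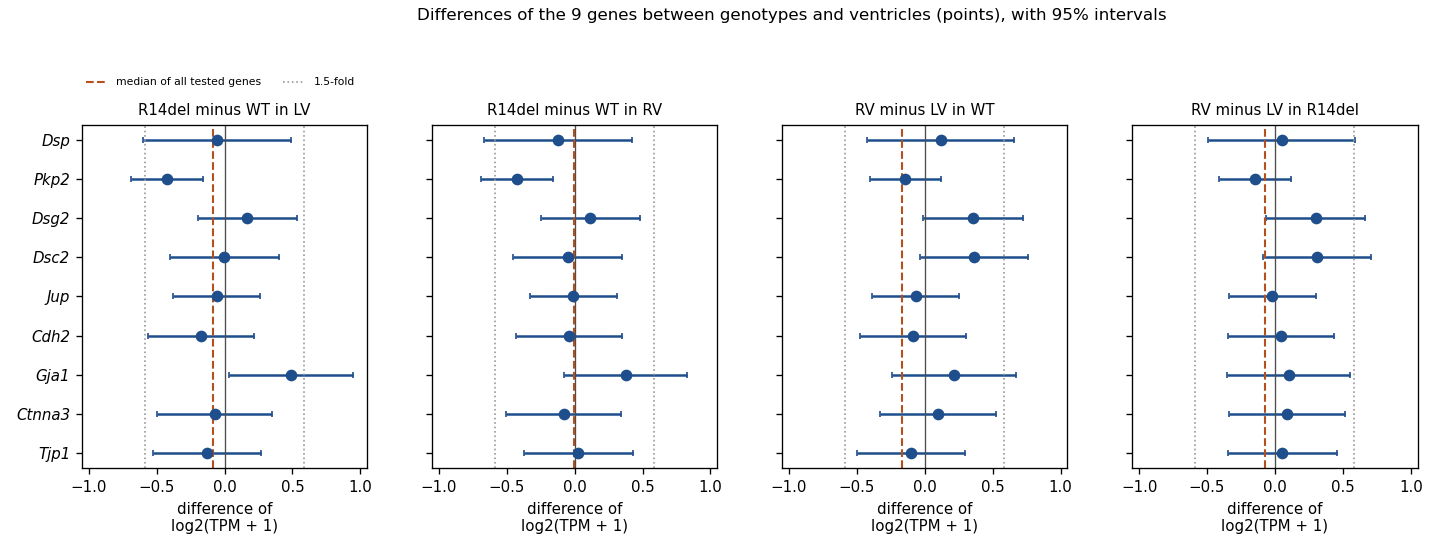
Difference of log2(TPM + 1) for each of the 9 genes in the 4 comparisons (points) with 95% intervals from limma, the median of all tested genes as a dashed line and the 1.5-fold limits as dotted lines. The intervals of Pkp2 exclude 0 in both genotype comparisons, that of Gja1 does so in the LV, and every point lies inside the 1.5-fold limits.

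Whether the genotype difference differs between ventricles was tested as an interaction. For the 9 genes it lay between -0.12 (Gja1) and 0.16 (Tjp1), with an adjusted limma p of 1.00 for each after rounding and unadjusted p from 0.560 to 0.992. For Pkp2 it was -0.002, with a 95% interval from -0.38 to 0.37. None of the 9 was called, beside 0% of all genes, and 0 of 9 had an unadjusted p under 0.05, beside 1.01% of all genes. The interval of Gja1 reached from -0.76 to 0.53, so a difference between ventricles of the size of its genotype difference is not excluded.

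Ratios within a sample set the genes against each other without regard to scaling. The ratio of Gja1 to Pkp2 was 1.32, 1.20 and 1.59 in the LV and 1.77, 1.35 and 2.23 in the RV of WT-PLN mice. In R14del-PLN mice it was 2.49, 2.91 and 2.39 in the LV and 3.27, 3.15 and 2.82 in the RV. All 6 R14del-PLN samples were above all 6 WT-PLN samples. The means of WT-PLN and R14del-PLN samples were 1.37 ± 0.199 and 2.60 ± 0.280 in the LV and 1.78 ± 0.444 and 3.08 ± 0.235 in the RV (SD, n = 3 each), and the two-sided exact permutation test gave p = 0.1 in each ventricle, the smallest that 3 against 3 samples allow. Over the 20 tests of 5 ratios the adjusted value was 0.182. These ratios were chosen with the values of Pkp2 and Gja1 known.

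**Figure D3:**
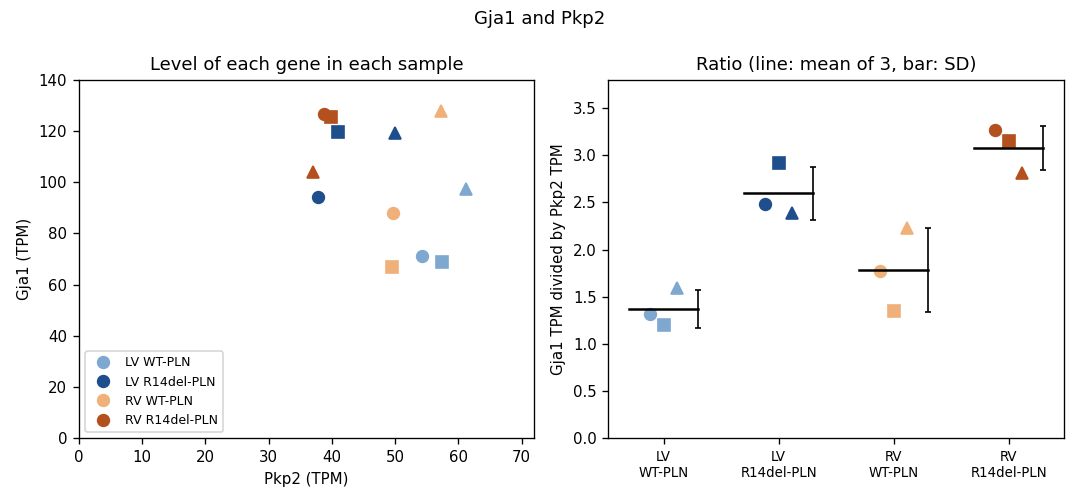
Level of Gja1 against Pkp2 in TPM in each of the 12 samples (left), and the ratio of Gja1 to Pkp2 by group with the mean (line) and SD (bar) of 3 samples (right). The ratio lies between 1.20 and 2.23 in the 6 WT-PLN samples and between 2.39 and 3.27 in the 6 R14del-PLN samples.

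Of the 8 ratios of Pkp2 to the other genes of the set, 5 were lower in R14del-PLN than in WT-PLN samples without overlap in both ventricles, namely those to Dsg2, Jup, Cdh2, Gja1 and Ctnna3. Taken against every other tested gene above 0 in all samples, the same held for 49.1% of ratios of Pkp2. Ratios of Gja1 were higher in R14del-PLN samples without overlap in both ventricles for 2 of 8, those to Pkp2 and Cdh2, against 19.0% of its ratios with all genes. The ratio of Pkp2 to Jup, both plaque proteins, was 0.943 ± 0.0302 in the LV of WT-PLN mice, 0.728 ± 0.0443 in that of R14del-PLN mice, and 0.895 ± 0.0656 and 0.669 ± 0.0827 in their RV (SD, n = 3 each).

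The ratio of Dsg2 to Pkp2 was higher in R14del-PLN samples in both ventricles and higher in the RV in both genotypes, each without overlap, as were 6.95% of the ratios of Dsg2 to all tested genes. It was 0.278 ± 0.0282 in the LV and 0.397 ± 0.0340 in the RV of WT-PLN mice, and 0.423 ± 0.0302 in the LV and 0.584 ± 0.0395 in the RV of R14del-PLN mice (SD, n = 3 each). The exact permutation p was 0.1 in each of the 4 comparisons, again the smallest that the design allows. The ratio of Dsg2 to Cdh2, a desmosomal to an adherens junction cadherin, was higher in the RV without overlap in both genotypes, as were 55.5% of the ratios of Dsg2 to all tested genes, at 0.189 ± 0.0109 in the LV and 0.260 ± 0.00579 in the RV of WT-PLN mice and 0.241 ± 0.0134 and 0.293 ± 0.0474 in R14del-PLN mice. Between genotypes it did not overlap in the LV and overlapped in the RV.

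Within groups, all 9 genes lay on the same side of their group means in 7 of 12 samples. In the WT-PLN samples numbered 3 of both ventricles and in the LV R14del-PLN sample numbered 3, all 9 genes were above their group mean. In the samples numbered 1 of the LV of both genotypes, in the WT-PLN RV sample numbered 2 and in the R14del-PLN RV sample numbered 3, 0 of 9 were above it. Over 36 pairs of genes, the median correlation of deviations from group means over the 12 samples was 0.758, from 0.343 to 0.974, against 0.456 over all pairs of tested genes. The median correlation of the 9 with all tested genes was 0.581. Dsp and Cdh2 had the highest value at 0.974, and Dsp correlated with Ctnna3 at 0.943 and with Tjp1 at 0.891.

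The mitochondrially encoded share was the lowest of its group in the LV samples numbered 3 of both genotypes and in the WT-PLN RV sample numbered 3, and in the RV of R14del-PLN mice it was lowest, at 51.1%, in the sample numbered 2, where 8 of 9 genes were above the mean. After quantile normalization the median correlation of the 9 was 0.320 against 0.00226 over all pairs, and without mitochondrially encoded genes it was 0.599 against 0.172. With all tested genes, the 9 then correlated at medians of 0.00546 and 0.310. Without the 3 samples numbered 3 named above, the median as deposited was 0.572 over the remaining 9 samples. After quantile normalization, the 6 pairs among Dsp, Cdh2, Ctnna3 and Tjp1 lay between 0.691 (Dsp and Tjp1) and 0.924 (Dsp and Cdh2). Pkp2 then went with Dsc2 at 0.714 and against Jup at -0.551. These correlations share the same 12 libraries and are given as descriptions only.

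**Figure D4:**
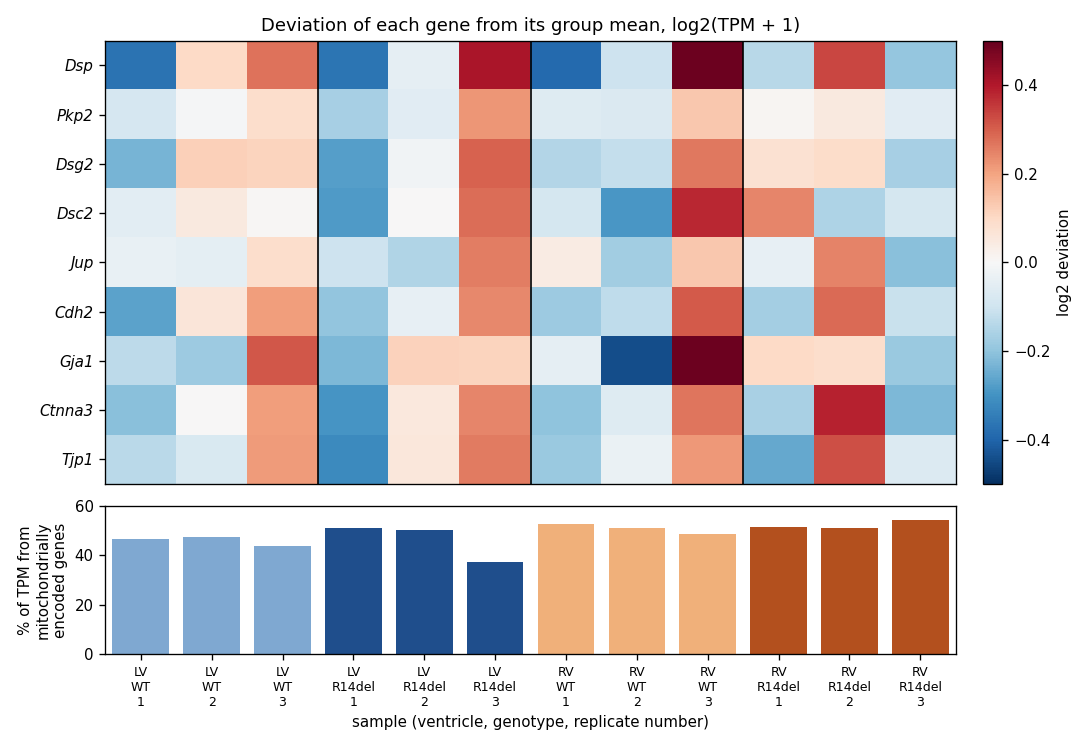
Deviation of each of the 9 genes from its group mean on the scale of log2(TPM + 1) in the 12 samples (top, colour from -0.5 to 0.5), and the percent of TPM from mitochondrially encoded genes in the same samples (bottom). All 9 genes are above their group mean in the LV and RV WT-PLN samples and the LV R14del-PLN sample numbered 3, where the mitochondrially encoded share is the lowest of its group.

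Among 6841 genes whose mean reached 5 TPM, those most like each of the 9 over the 12 samples were found by Pearson correlation of log2(TPM + 1). For Pkp2 they were Xbp1 (0.968) and Rftn1 (0.966), and for Gja1 they were Garem1 (0.921) and Strn (0.921). For Dsp they were Tmem131 (0.976) and Herc1 (0.974), for Jup Eif4g2 (0.952) and Calr (0.947), for Dsg2 Wnk2 (0.938) and Ppm1k (0.924), and for Dsc2 Ppip5k2 (0.953) and Atrnl1 (0.939). For Cdh2 they were Hnrnpu (0.978) and Vps13c (0.977), for Ctnna3 Nipbl (0.980) and Trip11 (0.975), and for Tjp1 Pcm1 (0.984) and Asb15 (0.962). Transcripts of 5000 bases or more and those under 2000 bases shifted against each other between samples of a group, by -0.13 to 0.17 in the median deviation. The longest annotated transcript has 9592 bases for Dsp, 7049 for Tjp1 and 2931 for Pkp2, and the part of transcript length in these correlations was not tested.

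Further genes of the cell junctions and of arrhythmogenic cardiomyopathy were counted in 9 lists with 96 genes, of which 73 passed the filter. None was called in any of the 4 comparisons. In the account that follows, each list is described by the genes with the smallest unadjusted limma p.

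Of the 12 desmosomal genes of epithelia, 2 passed the filter. Ppl, which encodes periplakin, was at 2.95 ± 0.494 TPM in the RV of WT-PLN and 1.93 ± 0.407 TPM in the RV of R14del-PLN mice (SD, n = 3 each), a difference of -0.43 with an unadjusted limma p of 0.0431 and an adjusted p of 0.784. Perp, a membrane protein of desmosomes, had group means of 52.7 to 60.5 TPM, and its difference of -0.20 between RV and LV of WT-PLN mice had an unadjusted limma p of 0.179. The other 10 had means under 0.5 TPM.

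Of 13 adherens junction and catenin genes, 12 passed the filter. Between genotypes, 1 was higher at an unadjusted p under 0.05 in each ventricle, beside 1.76% (LV) and 2.82% (RV) of all genes. This was Afdn, which encodes afadin, the adaptor of nectins at adherens junctions. It was at 11.9 to 15.5 TPM in WT-PLN and 23.6 to 26.1 TPM in R14del-PLN samples of the LV, and at 12.5 to 13.0 TPM and 15.8 to 41.0 TPM in the RV. The groups did not overlap in either ventricle. The difference was 0.84 ± 0.26 (SE) in the LV, with an unadjusted limma p of 0.00627 and an adjusted p of 0.252, and 0.77 ± 0.26 (SE) in the RV, with an adjusted p of 0.488, so it exceeded 1.5-fold but did not pass the adjusted threshold. After quantile normalization it was 0.95 and 0.80, with adjusted limma p of 0.105 and 0.191. Arvcf, a catenin, was at 4.19 TPM in the LV and 3.02 TPM in the RV of WT-PLN mice, with an unadjusted limma p of 0.0511. The median of the 12 genes was -0.02 in the LV and 0.03 in the RV between genotypes, and 0.09 and 0.07 after quantile normalization.

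Of 9 other gap junction and pannexin genes, 6 passed the filter. In the RV of WT-PLN mice, 2 were lower than in the LV at an unadjusted p under 0.05, beside 14.5% of all genes at this p. Gja5, which encodes connexin 40 of the conduction system and arteries, was at 2.60 ± 0.760 TPM in the LV and 1.47 ± 0.0993 TPM in the RV (SD, n = 3 each), a difference of -0.52 with an adjusted limma p of 0.254. Gjc1, which encodes connexin 45, was at 7.38 ± 0.579 and 5.27 ± 1.09 TPM, a difference of -0.43 with an adjusted limma p of 0.305. After quantile normalization these differences were -0.36 and -0.26. The list thus had a median of -0.34 in this comparison, against -0.17 over all tested genes, while Gja1 had 0.22. Between genotypes, its medians were -0.25 in the LV and -0.08 in the RV. After quantile normalization these 3 medians were -0.19, -0.14 and -0.07.

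Among 10 of 13 tight junction and scaffold genes that passed the filter, 0 reached an unadjusted p of 0.05 in any of the 4 comparisons. The smallest p were those of F11r, a junctional adhesion molecule, at 0.0906 between RV and LV of WT-PLN mice, and of Cldn5, the claudin of endothelium, at 0.0919 between genotypes in the LV. After quantile normalization there were 2 of 10 in the LV and 1 in the RV between genotypes and 1 between ventricles of WT-PLN mice, with 0 called. Cldn5 was at 7.93 ± 3.53 TPM in WT-PLN and 5.09 ± 0.491 TPM in R14del-PLN samples of the LV (SD, n = 3 each), with overlap.

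All 12 filament anchoring genes of the disc passed the filter. Their values were lower in the RV for 12 of 12 in WT-PLN and 11 of 12 in R14del-PLN mice, beside 85.9% and 70.3% of all tested genes. The medians were -0.33 and -0.18 beside -0.17 and -0.08 over all tested genes. After quantile normalization they were lower for 9 of 12 and 6 of 12, with medians of -0.12 and -0.006. Csrp3, which encodes muscle LIM protein, was at 1196 ± 57.4 TPM in the LV and 899 ± 27.3 TPM in the RV of WT-PLN mice (SD, n = 3 each). In R14del-PLN mice it was at 1170 ± 215 and 860 ± 54.5 TPM. The difference was -0.41 and -0.43, with adjusted limma p of 0.253 and 0.711, and -0.21 and -0.19 after quantile normalization. Fhl2, another LIM domain protein, was at 1046 and 749 TPM in WT-PLN and at 993 and 736 TPM in R14del-PLN mice, and neither gene overlapped between ventricles. The difference in Fhl2 was -0.48 in WT-PLN mice, and -0.27 after quantile normalization. Between genotypes, 0 of the 12 reached an unadjusted p of 0.05, and 2 of 12 did in the LV after quantile normalization.

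All 11 channels and membrane proteins of the disc passed the filter, and 0 of them reached an unadjusted p of 0.05 between genotypes. Between RV and LV, Popdc3, a Popeye domain protein, was at 8.64 and 12.3 TPM in WT-PLN mice, with a difference of -0.45 (-0.27 after quantile normalization) and an adjusted limma p of 0.267, and at 7.82 and 10.8 TPM in R14del-PLN mice. The RV samples lay below the LV samples of WT-PLN mice without overlap. The list had medians of -0.14 in WT-PLN and -0.06 in R14del-PLN mice, and after quantile normalization these were 0.06 and 0.02. As deposited, 3 of 11 and 1 of 11 had an unadjusted limma p under 0.05 between ventricles, beside 14.5% and 6.57% of all genes. After quantile normalization there were 6 of 11 and 5 of 11, with 7 of 11 higher and 4 lower in the RV of each genotype. Between genotypes there was then 1 of 11 in each ventricle, and 0 were called.

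Of 8 arrhythmogenic cardiomyopathy genes outside the core of the disc, all passed the filter and 0 reached an unadjusted p of 0.05 in any of the 4 comparisons. Lmna, which encodes the nuclear lamins A and C, was closest, at 35.6 TPM in LV and 27.6 TPM in RV samples of WT-PLN mice with an unadjusted limma p of 0.0571. Tgfb3, a growth factor, was at 4.78 and 3.57 TPM in the same samples with an unadjusted limma p of 0.105. All 8 had lower values in R14del-PLN samples of the LV, as had 71.7% of all tested genes, with a median of -0.12 against -0.09 over all genes, while after quantile normalization 4 of 8 did, with a median of -0.01.

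Plakoglobin shares its partners with beta-catenin of Wnt signalling, and fat replaces muscle in arrhythmogenic cardiomyopathy, so target genes of Wnt and genes of adipocytes were counted as well. Of all tested genes, 71.7% had lower values in R14del-PLN samples of the LV and 50.9% in those of the RV. Of 10 Wnt target genes, 5 passed the filter, and all 5 had lower values in the LV, with a median of -0.32. In the RV, 3 of the 5 had higher values. Both counts were the same after quantile normalization, where the median in the LV was -0.22. Nkd1, an inhibitor of Wnt signalling, was at 0.507 to 1.92 TPM in WT-PLN and 0.215 to 0.436 TPM in R14del-PLN samples of the LV. Its unadjusted limma p was 0.0304 and its adjusted p 0.448. The mean of Nkd1 over the 12 samples was 0.501 TPM, beside a filter of 0.5 TPM. Its group mean was 0.985 TPM in the LV of WT-PLN mice and 0.321 to 0.371 TPM in the other groups. Nkd1 thus passed the filter only through the group where it was high, so its p and its place among the 5 are no evidence of a lower level. Myc was at 2.16 ± 1.37 and 1.17 ± 0.283 TPM in the same samples (SD, n = 3 each), with overlap.

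Of 8 adipocyte genes, 7 passed the filter. Their means over the 12 samples were 0.795 to 4.22 TPM, apart from Fabp4 at 423 TPM. Between genotypes, 6 of 7 had lower values in the LV, beside 71.7% of all tested genes, with a median of -0.42. In the RV, 6 of 7 had higher values, where 50.9% of all tested genes had lower values, with a median of 0.25 over the 7. The interaction of genotype and ventricle had a median of 0.70 over the 7, against 0.08 over all tested genes. Of the 7, 1 had an unadjusted limma p under 0.05, beside 1.01% of all genes, and 0 were called. After quantile normalization the medians were -0.35 in the LV and 0.29 in the RV, and that of the interaction was 0.64. The 5 atrial cardiomyocyte markers had an interaction of 2.23 in the median, with 5 of 5 higher and 0 of 5 at an unadjusted limma p under 0.05. Of all tested genes, 25.7% had a negative interaction. The part of the sampled tissue in the adipocyte and atrial values was not tested. Cidec, a lipid droplet protein, was at 1.06 to 3.40 TPM in WT-PLN and 0.369 to 0.925 TPM in R14del-PLN samples of the LV, with an adjusted limma p of 0.353. Fabp4, a fatty acid binding protein also made by capillary endothelium, was at 443 ± 21.2 TPM in the LV and 345 ± 19.7 TPM in the RV of WT-PLN mice (SD, n = 3 each), with an adjusted limma p of 0.307.

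**Figure D5:**
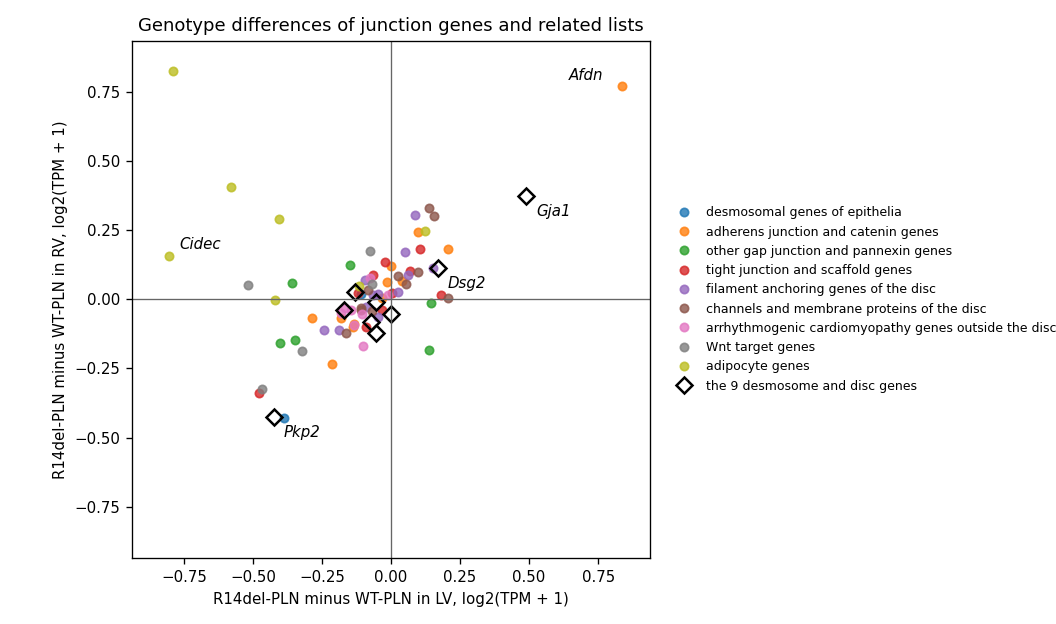
Difference between R14del-PLN and WT-PLN of log2(TPM + 1) in the LV (horizontal) and RV (vertical) for the 9 desmosome and disc genes (open diamonds) and the 73 tested genes of 9 related lists (coloured points). Most genes lie near 0 in both ventricles, Pkp2 lies at -0.42 and -0.43, Gja1 at 0.49 and 0.38, and Afdn at 0.84 and 0.77.

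In the mouse genome GRCm38 with the GENCODE M21 annotation, Dsp lies on chromosome 13 from 38151294 to 38198577, Pkp2 on chromosome 16 from 16213318 to 16272712, Jup on chromosome 11 from 100368958 to 100397763 and Tjp1 on chromosome 7 from 65296165 to 65527781. Gja1 lies on chromosome 10 from 56377330 to 56402513, and Ctnna3 on the same chromosome from 63430098 to 65003667, 10.1 Mb from Pln. The 3 cadherin genes share chromosome 18, with Cdh2 from 16588877 to 16809246, Dsc2 from 20030633 to 20059554 and Dsg2 from 20558074 to 20604521. In the search for near-identical copies, the only match was Gm10129, to Dsp. That search did not leave out overlapping transcripts, so the match does not show a copy elsewhere in the genome. Dsp overlaps Gm10129 and Dsg2 overlaps Gm16090, both on the opposite strand and both without a listed value. Whether reads were counted by strand is not given in the sources used here, so reads of these partners cannot be told apart from those of Dsp and Dsg2.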

How the data were processed

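RNA of LV and RV samples of WT-PLN and R14del-PLN mice was sequenced from stranded polyA libraries, and the authors mapped reads to GRCm38 with CLC Genomics Workbench. The authors deposited 1 TPM value per gene and sample. The values of each sample sum to the same total and keep no record of depth, so no counting error, floor or interval for depth can be given. The program that made the TPM values is not given in the sources used here. Groups and replicate numbers came from the labels.

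Log2(TPM + 1) values of the 12526 genes whose mean reached 0.5 TPM entered limma (version 3.58.1, R version 4.3.3, empirical Bayes, intensity trend) as 1 model of 4 group means, and p-values were adjusted by Benjamini-Hochberg over all of them. A gene was called at an adjusted p of 0.05 or less with a fold of 1.5 or more. The fit was tested on simulated data. Ratios, exact permutation tests, sequences and figures used Python 3.11.15 with scipy 1.17.1, numpy 2.4.6, matplotlib 3.10.9 and pandas 2.3.3. Of the tested genes, 97.9% matched the annotation. A near-identical copy needed 95% identity over 80% of a transcript.

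The 9 genes, the lists and the tests were chosen with earlier results of these data known. Genes were named by a rule: all 9, then from each list those called or else the 2 with the smallest unadjusted p in any of the 4 comparisons, and the 2 genes most like each of the 9. A gene that this rule names among the channels is not reported here. Alternatives were other pseudocounts, filters, scalings, samples and spread estimates, replicate blocks, no fold threshold and each sample left out. Those without both WT-PLN samples numbered 1, with LV and RV averaged, and the lists and within-group correlations under other scalings were chosen after seeing the data. Deviations of same-numbered LV and RV samples correlated at 0.657, 0.321 and 0.457 in WT-PLN mice, against means of -0.339, -0.148 and -0.228 with other numbers. The numbers were therefore read as pairs there. In R14del-PLN mice the values were 0.389, 0.230 and 0.0542, against -0.118, -0.166 and -0.0439. The last did not reach the limit of 0.1, so these values do not settle whether the numbers pair the R14del-PLN samples.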

Additional observations from a re-analysis of the deposited data

How the results depend on the processing

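None of the 9 genes was called under any of the 18 alternatives run for each of the 4 comparisons, any of the 23 for the interaction, or without the fold threshold at the deposited scaling. Pkp2 and Gja1 between genotypes, and Dsg2 and Dsc2 between ventricles, kept their direction in all 18, as did Dsg2 between genotypes. Between RV and LV of WT-PLN mice, quantile normalization gave 0.42 for Gja1 and 0.33 for Dsp, against 0.22 and 0.12 as deposited. Of 747 values under alternatives, 82 changed sign, and the cause was not tested. Leave-one-out fits of the interaction gave counts only. Over all tested genes, 65 were called between genotypes in the LV and 34 in the RV, against 19 to 231 and 14 to 95 under the alternatives, 0 to 12 between ventricles of WT-PLN mice and 0 to 1 of R14del-PLN mice. The block on replicate number gave 119 and 62 calls between genotypes, where the numbers mark no shared animal, and an adjusted limma p for Pkp2 of 0.136 and 0.203. A block pairing LV and RV by number gave 12 calls in WT-PLN mice, and no block changed a call of the 9.

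After quantile normalization, the differences that changed sign were, between genotypes in the LV, 0.033 for Dsp, 0.11 for Dsc2, 0.047 for Jup and 0.036 for Ctnna3, and in the RV 0.033 for Jup and 0.0051 for Cdh2. Between RV and LV of WT-PLN mice they were 0.054 for Pkp2, 0.13 for Jup, 0.11 for Cdh2 and 0.078 for Tjp1, of R14del-PLN mice 0.12 for Jup, and for the interaction -0.014 for Jup. After upper quartile scaling they were 0.065 for Dsp, 0.11 for Dsc2, 0.063 for Jup and 0.037 for Ctnna3 in the LV, 0.015 for Jup in the RV, 0.049 for Pkp2, 0.13 for Jup, 0.10 for Cdh2 and 0.080 for Tjp1 between ventricles of WT-PLN mice, 0.077 for Jup in R14del-PLN mice, and -0.048 for Jup in the interaction. Without mitochondrially encoded genes they were 0.014 for Dsc2 in the LV, 0.033 for Jup and 0.0032 for Cdh2 in the RV, 0.070 for Jup, 0.047 for Cdh2 and 0.027 for Tjp1 between ventricles of WT-PLN mice, 0.016 for Pkp2 and 0.14 for Jup in R14del-PLN mice, and 0.024 for Pkp2 and 0.017 for Ctnna3 in the interaction. The summed level of the 9 was then 879 TPM in the LV and 1013 TPM in the RV of WT-PLN mice and 886 and 1033 TPM in R14del-PLN mice. Without both WT-PLN samples numbered 1, Jup was at 0.0096 and Tjp1 at -0.065 between genotypes in the RV, and the interaction of Pkp2 was 0.0078. With LV and RV averaged, the genotype difference of Tjp1 was -0.051.

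Leaving out 1 sample at a time changed the sign of the differences that follow. Between genotypes in the LV, the range was -0.26 to 0.13 for Dsp, -0.14 to 0.14 for Dsc2, -0.18 to 0.020 for Jup, -0.19 to 0.074 for Ctnna3 and -0.26 to 0.029 for Tjp1. In the RV it was -0.32 to 0.12 for Dsp, -0.20 to 0.14 for Dsc2, -0.13 to 0.094 for Jup, -0.18 to 0.11 for Cdh2, -0.27 to 0.053 for Ctnna3 and -0.13 to 0.15 for Tjp1. Between ventricles of WT-PLN mice it was -0.13 to 0.31 for Dsp, -0.13 to 0.021 for Jup, -0.24 to 0.016 for Cdh2, -0.029 to 0.44 for Gja1, -0.036 to 0.20 for Ctnna3 and -0.21 to 0.0050 for Tjp1. In R14del-PLN mice it was -0.13 to 0.25 for Dsp, -0.14 to 0.11 for Jup, -0.10 to 0.16 for Cdh2, -0.013 to 0.19 for Gja1, -0.10 to 0.21 for Ctnna3 and -0.11 to 0.19 for Tjp1. TPM values do not tell which samples were sequenced more deeply.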
